A study of Mus musculus with 2 samples.

Results

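The genes described here are the nuclear protein-coding genes of the oxidative phosphorylation system, chosen by their symbols (Nduf, Sdha to Sdhd, Sdhaf, Uqcr, Cyc1, Cycs, Cox followed by a digit, and Atp5) from the basic set of GENCODE release M21. They numbered 109 of the 21938 nuclear protein-coding genes of that annotation. Because Atp5o has a second gene record, ENSMUSG00000116933, the 109 genes carry 108 symbols. A gene was called YY1 bound when the summit of a deposited peak, the position of its highest signal, lay within 1000 bp of the start of any of its transcripts. The study asked which genes YY1 binds in muscle stem cells (MuSCs) of dystrophic mice, and mapped them by ChIP-seq, which sequences the DNA recovered with an antibody against a chromatin protein.

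The deposited list holds the peaks of 1 YY1 library, called against 1 background library, which was not analysed here and which the sample labels name input and the methods name IgG. The MuSCs were mixed from several Ctrl mice, which carry the mdx mutation, Pax7CreERT2/R26YFP and the Yy1+/+ alleles. The methods describe the cells as freshly isolated by sorting on the fluorescent reporter, while the labels call them WT and give a culture protocol, and the age of these mice is not given in the sources used here. CreERT2 is driven by Pax7, the gene that marks MuSCs, so that the reporter is switched on in these cells and their descendants once tamoxifen has been given. The list holds positions and enrichments of DNA and no expression, so the identity of the cells could not be checked against marker genes. With 1 library there was no spread between mice or libraries, so no difference between genes or complexes was tested, and the intervals below cover counting error only. The fragments at a summit numbered 8 to 394 over the 4681 peaks (median 14).

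YY1 is a zinc-finger protein that binds DNA at a motif with the core ATGGC and can activate or repress transcription. Oxidative phosphorylation takes place in the inner mitochondrial membrane. Complex I oxidises NADH and complex II oxidises succinate, and both pass electrons to ubiquinone. Complex III passes them on to cytochrome c and complex IV to oxygen, and complex V, the ATP synthase, uses the proton gradient built by complexes I, III and IV to make ATP. Most subunits are encoded in the nucleus and a few in mitochondrial DNA, and quiescent MuSCs are known to raise their mitochondrial activity when they are activated.

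Of the 109 genes, 42 (38.5%) were YY1 bound, against 18.8% of all nuclear protein-coding genes (4119 of 21938). Each of the 42 had its own peak, and none had a second peak in its window. The other 67 genes had no summit within 1000 bp, which means that no site there passed the peak caller at this depth and not that YY1 was absent. Bound and unbound members were well separated in distance. The bound members farthest from their summits were Ndufa13 (668 bp, fold enrichment 5.52) and Atp5f1 (863 bp, 5.30), while the nearest summits outside the window lay 4691 bp from the second record of Atp5o, 7420 bp from Uqcr11 and 7938 bp from Cyc1. For the 67 unbound genes the nearest summit of the list lay at a median of 70.0 kb. A window of 5000 bp took in 43 members, the second record of Atp5o being the additional one, and 20.4% of all protein-coding genes.

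**Figure D1:**
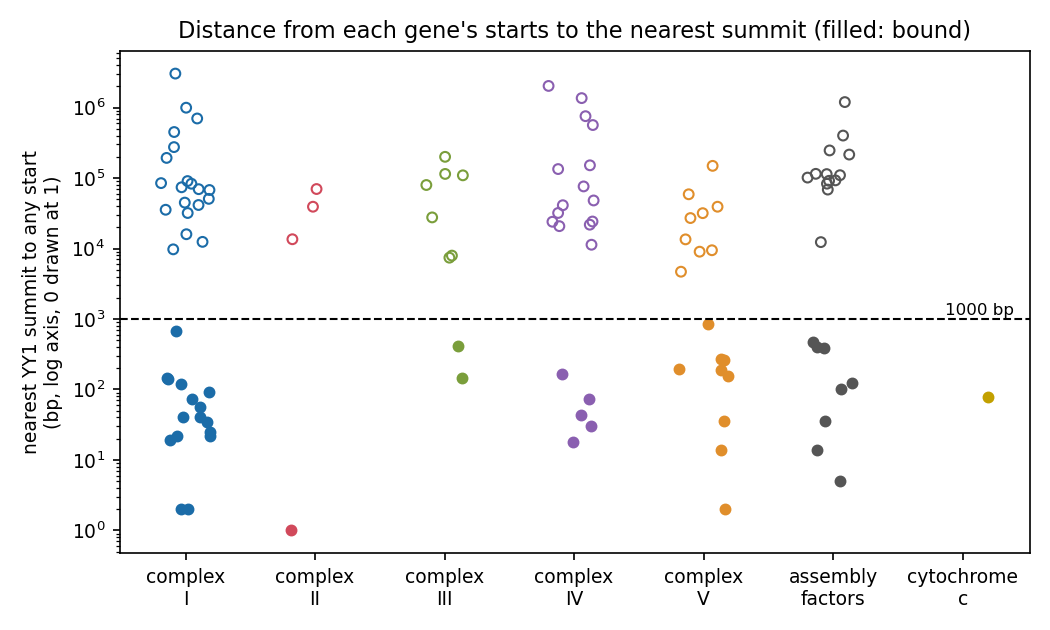
Distance in bp, on a log axis, from the starts of each of the 109 genes to the nearest YY1 summit, 1 point per gene and 1 colour per complex, filled where the gene was bound, with the summit of Sdha at its start drawn at 1 bp. No gene falls between 863 and 4691 bp, so the limit of 1000 bp (dashed) divides the genes at a gap.

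The background depends on the kind of promoter. A start was called CpG-rich when the ratio of observed to expected CpG within 500 bp was at least 0.6 and at least 50% of the bases were G or C. By this measure 85 of the 109 genes (78.0%) had a CpG-rich start, against 49.2% of all protein-coding genes. Of these 85 genes 39 (45.9%) were bound, and the share among all CpG-rich protein-coding genes was 36.2% (3887 of 10752). Among the 24 members without such a start, 3 (12.5%) were bound, namely Atp5f1, Ndufb10 and Ndufs8, and of all protein-coding genes without one 211 of 11099 (1.90%) were. Ndufb10 and Ndufs8 lay just under the limit, with ratios of 0.571 and 0.586, and the summit of Atp5f1 (0.457) was nearer to the start of Wdr77. The division by CpG content was chosen after the data had been seen.

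The complexes differed in their counts. In complex V 9 of 18 genes (50%) were bound and in complex I 16 of 36 (44.4%). Complex IV had 5 of 20 (25%), complex II 1 of 4 (25%) and complex III 2 of 9 (22.2%). Among the assembly factors, which help to build the complexes and are not part of them, 8 of 21 (38.1%) were bound, and Cycs, which encodes the electron carrier cytochrome c, was bound as well. When only CpG-rich members were counted, the share was 5 of 10 in complex IV, 8 of 15 in complex V, 14 of 31 in complex I, 8 of 17 among assembly factors, 2 of 7 in complex III and 1 of 4 in complex II. None of the 10 genes of complex IV without a CpG-rich start was bound. When peaks below a fold enrichment of 5 were left out, 23 members (21.1%) were bound, against 11.1% of all protein-coding genes, with 9 in complex I, 5 in complex V, 3 in complex IV and 4 among the assembly factors. With a window that ended 100 bp downstream of the start, complex V had 5 bound genes and complex III had 1, while all members had 36 (33.0%) and the share of all protein-coding genes fell to 14.6%.

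**Figure D2:**
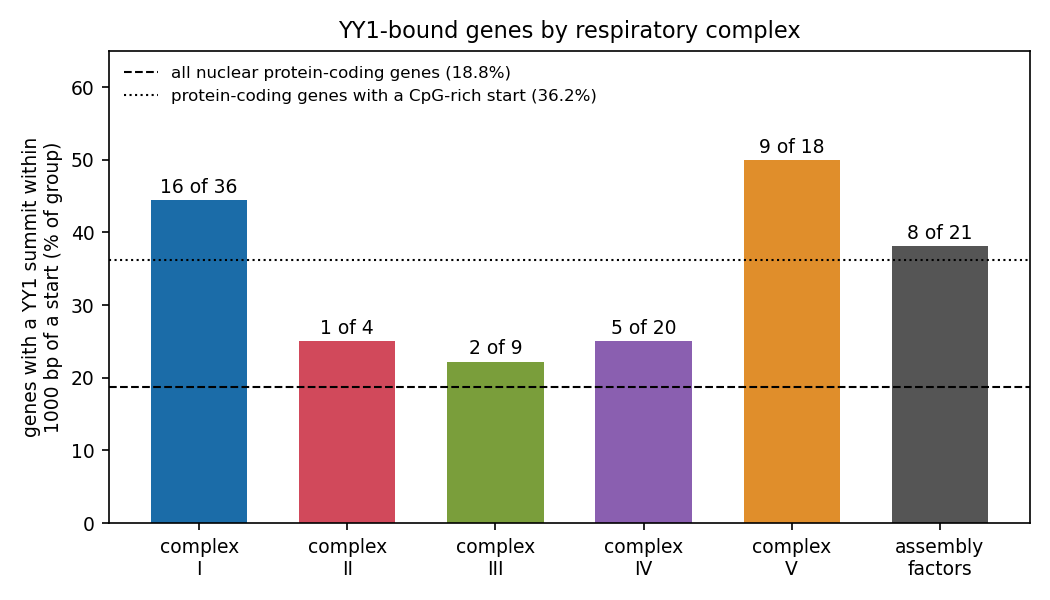
Share in percent of the genes of each complex and of the assembly factors with a YY1 summit within 1000 bp of a start, with the numbers of bound and of all genes above the bars and Cycs left out. Complexes I and V and the assembly factors lie above both background lines, 18.8% for all protein-coding genes and 36.2% for those with a CpG-rich start, and complexes II, III and IV between them. The bars count genes with and without a CpG-rich start, so the second line is not a like comparison. Among CpG-rich genes alone, 50% were bound in complex IV, 25% in complex II and 28.6% in complex III.

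Fold enrichment, as the peak caller gave it, is the fragments at the summit plus 1 divided by the local background plus 1, so that it is smaller than the plain ratio of the fragments and the background printed below. At these genes it was close to that of other bound genes. Its median over the 42 bound members was 5.07, with a range from 2.70 to 9.07, and over all bound protein-coding genes 5.13. At the members' summits there were 11 to 24 fragments (median 14.5), and at all bound genes the median was 15. At such numbers the counting error is wide. The 95% exact Poisson interval of the fragments, carried over to the fold enrichment in the same way, contained the median of all bound genes at 38 of the 42 members. It lay above that median for Ndufab1, Ndufv2 and Ndufa4 and below it for Ndufs1. The same count was not made over all bound genes, so these members are not shown to stand apart. The q-value, the p-value of a peak corrected for the number of sites examined by the peak caller, was under 0.01 for 38 of the 42 peaks and largest for Ndufa5 and Sdhaf3 (q = 0.0743). Of the 4119 bound protein-coding genes, 3825 had a peak under that limit.

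**Figure D3:**
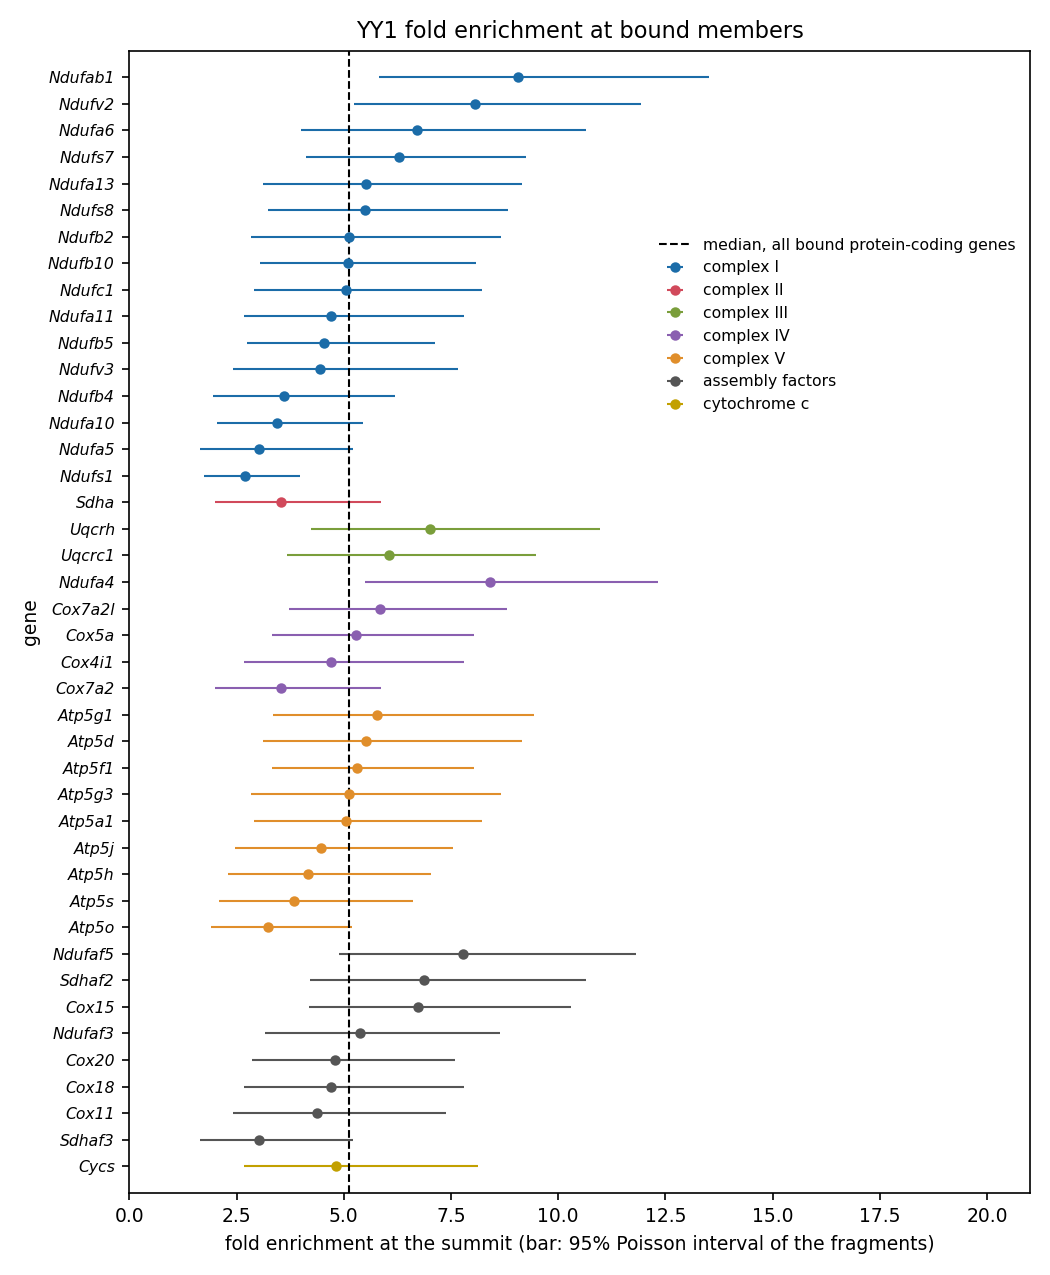
Fold enrichment at the summit of each of the 42 bound members, ordered by complex, with bars for the 95% exact Poisson interval of the fragments at the summit, and the median of all bound protein-coding genes as a dashed line. With the local background taken as exact, the intervals of Ndufab1, Ndufv2 and Ndufa4 lie wholly above the line and that of Ndufs1 wholly below.

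In complex I, 4 of the 7 core subunits (57.1%), which carry the flavin and the iron-sulphur clusters, were bound. The background was 18.8% of all protein-coding genes and 36.2% of those with a CpG-rich start. Ndufv2, which holds an iron-sulphur cluster near the site of NADH oxidation, had 23 fragments over a local background of 1.98 (fold enrichment 8.07, interval 5.24 to 11.9), with a peak on chromosome 17 from 66101409 to 66101743 (GRCm38) and its summit 34 bp upstream of the start. Ndufs7, which holds the last cluster before ubiquinone, had 24 fragments over 2.97 (fold enrichment 6.29, interval 4.12 to 9.24) on chromosome 10 from 80248968 to 80249513. Ndufs8, a further iron-sulphur subunit, had 15 fragments over 1.91 (5.50, interval 3.23 to 8.84) on chromosome 19 from 3912659 to 3912997. Ndufs1, the largest subunit of the complex, had 23 fragments, as many as Ndufv2, but over a local background of 7.90, which gave it the lowest fold enrichment of all members, 2.70 (interval 1.75 to 3.99). Its summit lies 25 bp from its own start and 118 bp from that of Eef1b2, a translation elongation factor gene. The unbound core genes included Ndufv1, which encodes the NADH-binding flavoprotein, with the nearest summit 83.2 kb away.

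Of the 29 accessory subunits of complex I, 12 (41.4%) were bound. This compares with 18.8% of all protein-coding genes and 36.2% of those with a CpG-rich start. Ndufab1, the mitochondrial acyl carrier protein, had the highest fold enrichment of all 109 genes, 9.07 (interval 5.83 to 13.5), from 22 fragments over 1.54. Its peak lies on chromosome 7 from 122101698 to 122102003 and ranked 87 of 4681 by fold enrichment. The summit is 22 bp downstream of the Ndufab1 start, and no other gene starts within 1000 bp of it. It was followed by Ndufa6 (6.70, interval 4.0 to 10.6, 16 fragments over 1.54), with its summit 2 bp upstream of a start, and by Ndufa13, also known as GRIM-19 (5.52, interval 3.12 to 9.16, 13 fragments over 1.54). The other bound accessory genes were Ndufb2, Ndufb10, Ndufc1, Ndufa11, Ndufb5, Ndufv3, Ndufb4, Ndufa10 and Ndufa5, with fold enrichments from 5.13 at Ndufb2 down to 3.03 at Ndufa5. The 17 unbound ones were Ndufa1, Ndufa2, Ndufa3, Ndufa7, Ndufa8, Ndufa9, Ndufa12, Ndufb3, Ndufb6, Ndufb7, Ndufb8, Ndufb9, Ndufb11, Ndufc2, Ndufs4, Ndufs5 and Ndufs6.

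In complex II, only Sdha was bound among its 4 subunits. Sdha encodes the flavoprotein that oxidises succinate, and its summit lay exactly at its start on chromosome 13 and 29 bp from that of the divergent gene Ccdc127, with 13 fragments over 2.96 (fold enrichment 3.53, interval 2.0 to 5.86). Sdhb, Sdhc and Sdhd, the iron-sulphur subunit and the membrane anchors, had their nearest summits 70.0, 39.2 and 13.6 kb away. In complex III the bound genes were Uqcrh, the hinge protein (7.0, interval 4.24 to 11, 17 fragments over 1.57), and Uqcrc1, a core protein (6.05, interval 3.66 to 9.48, 17 fragments over 1.98). The peak of Uqcrh, on chromosome 4 from 116075130 to 116076657, is 1528 bp wide, the widest of the members' peaks, and its summit lies nearer to Lrrc41 (215 bp) than to Uqcrh (413 bp). The genes of the catalytic centre, Cyc1 and Uqcrfs1, were unbound, as were Uqcrc2, Uqcrb, Uqcrq, Uqcr10 and Uqcr11. Cycs had 12 fragments over 1.70 (4.82, interval 2.67 to 8.14), 78 bp downstream of its start.

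In complex IV the bound genes were Ndufa4, Cox7a2l, Cox5a, Cox4i1 and Cox7a2. Ndufa4, first described in complex I and now placed in complex IV, had the second highest fold enrichment of all members, 8.40 (interval 5.50 to 12.3), from 24 fragments over 1.98 on chromosome 6 from 11907334 to 11907838. Cox7a2l, a factor of the respiratory supercomplex, had 21 fragments over 2.76 (5.85, interval 3.72 to 8.80) and Cox5a had 20 over 2.97 (5.29, interval 3.33 to 8.03). Several subunits of this complex come in pairs, with a form made in most tissues and a form made mainly in muscle, testis or lung or under special conditions such as low oxygen. Of the widely expressed forms, Cox4i1 (4.70, interval 2.66 to 7.81, 13 fragments over 1.98), Cox7a2 (3.53, interval 2.0 to 5.86, 13 over 2.96) and Ndufa4 were bound, and Cox6a1, Cox6b1, Cox7b and Cox8a were not, with nearest summits 21.8, 24.0, 2034 and 11.3 kb away. None of their 8 restricted counterparts was bound, as against 1.90% of all protein-coding genes without a CpG-rich start, the class to which all 8 belong. For the forms of heart and skeletal muscle, Cox6a2, Cox7a1 and Cox8b, the nearest summits lay 32.0, 48.1 and 41.2 kb away, and for Cox4i2, Cox6b2, Cox7b2, Cox8c and Ndufa4l2 they lay 76.2, 24.2, 1366, 20.8 and 152 kb away. The ratios of observed to expected CpG of the 8 restricted genes ran from 0.186 to 0.468, while 5 of the 7 widely expressed forms had a CpG-rich start. Leaving out these 8 unbound genes can only raise the share, and without them 42 of 101 members (41.6%) were bound. The remaining unbound subunits were Cox5b, Cox6c and Cox7c.

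The genes of complex V are given by the parts of the enzyme, a division made after their values had been seen. The parts hold 1 to 5 genes each and were not tested against each other or against the background, which was 18.8% of all protein-coding genes and 36.2% of those with a CpG-rich start. All 4 genes of the peripheral stalk, which holds the catalytic head still against the rotor, were bound, namely Atp5f1 (fold enrichment 5.30, interval 3.33 to 8.05, 20 fragments over 2.96), Atp5j (4.47), Atp5h (4.16, interval 2.31 to 7.03, 12 over 2.12) and Atp5o (3.23). Atp5o was bound by its first gene record and not by its second. Each of their windows holds another gene, and the summit lay nearer to the start of the other gene in 3 of the 4 cases. For Atp5f1 this was Wdr77, 133 bp away against 863 bp, for Atp5h it was Kctd2, 86 bp against 274 bp, and for Atp5j it was Gabpa, 120 bp against 259 bp. Gabpa encodes a subunit of the transcription factor NRF-2, itself an activator of oxidative phosphorylation genes. Of the 5 genes of the catalytic F1 head, Atp5a1 (5.04, 14 fragments over 1.98) and Atp5d (5.52, interval 3.12 to 9.16, 13 over 1.54) were bound, and Atp5b, Atp5c1 and Atp5e were not. The c-ring of the rotor is encoded by 3 genes for an identical mature protein. Atp5g1 (5.79, interval 3.34 to 9.45, 14 over 1.59) and Atp5g3 (5.13, interval 2.84 to 8.66, 12 over 1.54) were bound, with summits 195 bp upstream and 2 bp downstream of a start, and for Atp5g2 the nearest summit was 149 kb away. None of the 4 genes of small membrane subunits, Atp5k, Atp5j2, Atp5l and Atp5mpl, was bound. Atp5s, known as factor B, was bound (3.84, 11 fragments over 2.12).

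Among the assembly factors, 2 of 8 for complex I (25%), 2 of 4 for complex II (50%) and 4 of 9 for complex IV (44.4%) were bound. The shares to set beside them are 18.8% of all protein-coding genes and 36.2% of those with a CpG-rich start. Ndufaf5, an enzyme that modifies Ndufs7, had the highest fold enrichment, 7.78 (interval 4.90 to 11.8), from 20 fragments over 1.70 on chromosome 2 from 140170466 to 140170805, and its summit lay 14 bp from its own start and 71 bp from that of Esf1. Ndufaf3 had 15 fragments over 1.98 (5.38, interval 3.16 to 8.65). Sdhaf2, which is needed to attach the flavin to Sdha, had 18 fragments over 1.76 (6.88, interval 4.22 to 10.7), and Sdhaf3 had 11 over 2.96 (3.03, interval 1.64 to 5.22). For complex IV, Cox15, which makes heme A, had 19 fragments over 1.98 (6.72, interval 4.18 to 10.3), Cox20 had 16 over 2.55 (4.79, interval 2.86 to 7.60), Cox18 had 13 over 1.98 (4.70, interval 2.66 to 7.81) and Cox11, which delivers copper, had 12 (4.37). The unbound factors were Ndufaf1, Ndufaf2, Ndufaf4, Ndufaf6, Ndufaf7, Ndufaf8, Sdhaf1, Sdhaf4, Cox10, Cox14, Cox16, Cox17 and Cox19. Cox10 acts in the step before Cox15, and its nearest summit was 1200 kb away. A further list of 36 assembly factors with other names had 14 bound genes (38.9%), against 18.8% of all protein-coding genes and 36.2% of those with a CpG-rich start, with fold enrichments from 3.03 at Foxred1 to 7.04 at Lrpprc, which stabilises mitochondrial mRNAs.

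The regulators of this gene programme were counted as a separate list. Of 15 genes, 10 (66.7%) had a promoter summit, against 18.8% of all protein-coding genes and 36.2% of those with a CpG-rich start. Among the genes of NRF-2, the factor that reads the ETS motif, Gabpb1 had 22 fragments over 1.98 (fold enrichment 7.73), Gabpb2 had 18 (6.39) and Gabpa had 12 (4.47, the peak it shares with Atp5j). Nrf1, a second activator of respiratory genes, had 18 fragments over 2.96 (4.79). Of the genes that act on mitochondrial DNA, Tfam (5.92), Tfb2m (6.31), Mterf1a (7.06) and Mterf3 (4.52) were bound, and Tfb1m and the RNA polymerase gene Polrmt were not. Of the PGC-1 coactivator family, Pprc1 was bound (5.93), whereas Ppargc1a and Ppargc1b, and their partner Esrra, were not. The list also holds Yy1 (3.64).

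The summits lay close to the starts. Their median distance was 73.5 bp at the 42 members and 107 bp at all bound protein-coding genes, and 24 members (57.1%) had the summit within 100 bp of a start, against 47.9%. The sides were close to even, with 23 summits upstream, 18 downstream and 1 at the start itself. The peaks were often shared. At 23 of the 42 members (54.8%) the summit also lay within 1000 bp of a start of another gene, which was true of 39.7% of all bound protein-coding genes. The other gene was protein-coding in 17 cases and only non-coding in 6. Another protein-coding gene was thus present at 40.5% of the bound members and at 25.7% of all bound protein-coding genes (1059 of 4119). The nearest other gene lay on the opposite strand in 22 of the 23. The summit was nearer to the start of the member in 13 cases and to that of the other gene in 10. Strand and nearer start were not counted over all bound genes. Besides those named above, these pairs include Cox4i1 with Emc8, Ndufb5 with the mitochondrial ribosomal protein gene Mrpl47, Cox15 with Cutc and Cox11 with Stxbp4. A single peak cannot assign YY1 to 1 of the genes. Counting only members whose peak lay in no other gene's window left 19 of 109 (17.4%), where the same count over all protein-coding genes was 11.3%.

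**Figure D4:**
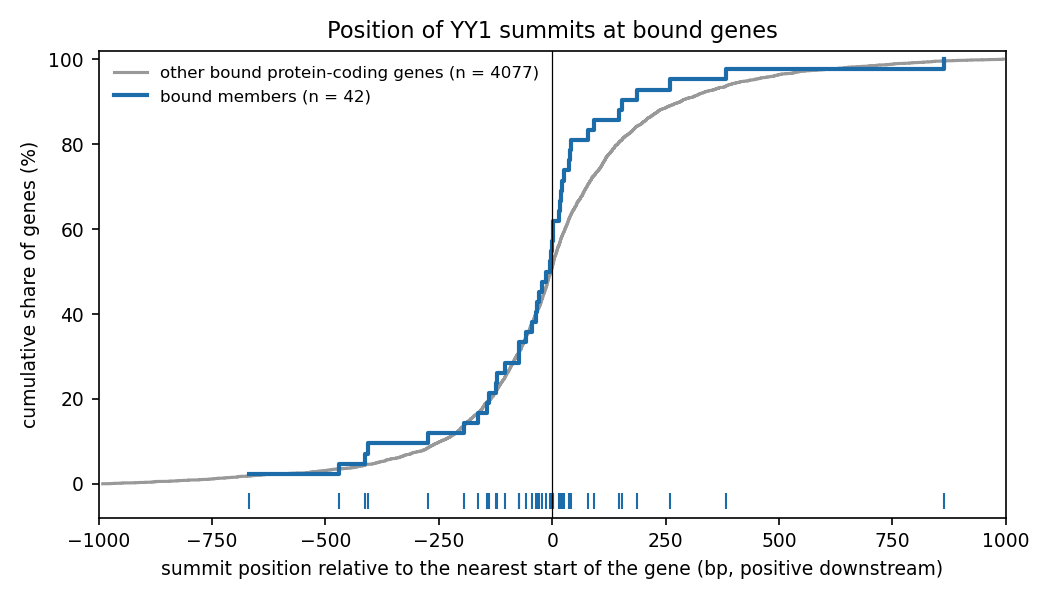
Cumulative share in percent of bound genes against the position of the summit from the nearest start of the gene in bp, for the 42 bound members (blue, with a tick for each) and for the other bound protein-coding genes (grey). Of the members' summits 57.1% lie within 100 bp of the start, 11 of them upstream, 12 downstream and 1 at the start.

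The YY1 motif AANATGGC was searched in the reference genome on both strands. It lay wholly within 100 bp of the summit at 9 of the 42 bound members (21.4%), against 8.11% of all bound protein-coding genes. These are 4 genes of complex I, 3 of complex V and 2 of complex III. The sites are shown because they are the places where a peak and the motif meet. Each line gives 30 bases of GRCm38 on the strand of the motif, with the motif in capitals.
Uqcrh, chr4:116075395-116075424, plus strand: cgcacctccccAAGATGGCggcgcccgagg
Ndufa6, chr15:82354213-82354242, minus strand: gcttcctcggcAAGATGGCggccgcggcca
Uqcrc1, chr9:108936705-108936734, plus strand: acggaagttagAAGATGGCggcgtccgcag
Atp5g1, chr11:96075913-96075942, plus strand: accttcaacacAAAATGGCgaccaaggtgc
Atp5f1, chr3:105959248-105959277, plus strand: ggggcaggagcAAGATGGCcgctcgcacat
Ndufc1, chr3:51408915-51408944, minus strand: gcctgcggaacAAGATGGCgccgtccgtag
Ndufb5, chr3:32736979-32737008, plus strand: tgccctcactcAATATGGCctcctctagcg
Atp5h, chr11:115420154-115420183, plus strand: agcggcggcccAAGATGGCggagctgcagc
Ndufs1, chr1:63176654-63176683, plus strand: gccgctaagtcAATATGGCggccacggcaa

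Of these 9 sites 6 have G at the open position of the motif. The sites of Ndufa6, Uqcrc1 and Ndufc1 lie in the direction of the gene, 23, 83 and 55 bp downstream of the start at the peak, and the ATG of the motif is the annotated start codon of the gene. At Uqcrh and Atp5h the ATG is the start codon of the divergent neighbour, Lrrc41 and Kctd2. Fold enrichment at the 9 genes ran from 2.70 at Ndufs1 to 7.0 at Uqcrh, with 5.04 (interval 2.91 to 8.23) from 14 fragments over 1.98 at Ndufc1 and 4.54 (interval 2.75 to 7.12) from 17 over 2.96 at Ndufb5. The distance from the motif to the summit ranged from 23 bp at Atp5f1 to 93 bp at Ndufb5.

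The motif was next counted around the starts of coding transcripts, whether or not a peak was there. Within 100 bp of a start it was present in 27 of the 109 members (24.8%) and in 7.66% of all protein-coding genes (1674 of 21851 with a coding transcript in the basic set) and 10.9% of those with a CpG-rich start. Among the members it was present in 11 of 42 bound genes (26.2%) and 16 of 67 unbound genes (23.9%), small counts whose difference was not tested. Over all protein-coding genes the shares were 13.1% with a peak and 6.42% without. The 16 unbound members include Ndufs6, Sdhc and Cox10. The sites of most of them are shown because the same letters were present there without a peak in the list.
Sdhc, chr1:171150563-171150592, minus strand: ggccggaactcAAGATGGCtgcgttcttgc
Ndufs6, chr13:73328431-73328460, minus strand: gggtcaccggcAAGATGGCggcggtgctga
Ndufa9, chr6:126849097-126849126, minus strand: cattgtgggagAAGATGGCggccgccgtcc
Ndufa3, chr7:3617384-3617413, plus strand: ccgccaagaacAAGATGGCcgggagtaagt
Ndufa4l2, chr10:127514968-127514997, plus strand: gacactgggacAAGATGGCaggaactagtc
Ndufb8, chr19:44555386-44555415, minus strand: cggagaaggtgAAGATGGCtgccgcccggg
Ndufaf8, chr11:120098933-120098962, plus strand: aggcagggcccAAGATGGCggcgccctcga
Cox10, chr11:64079433-64079462, minus strand: ggcgggctagcAAGATGGCggcgcccagga
Atp5j2, chr5:145191500-145191529, minus strand: accaggacttcAAGATGGCgtcactcggtg
Atp5j2, chr5:145192025-145192054, minus strand: actttggcgctAACATGGCttaaatctaat
Ndufa7, chr17:33824616-33824645, plus strand: ggagcggaaggAATATGGCgtccgctactc
Uqcrb, chr13:66905296-66905325, minus strand: actctcaggtcAAAATGGCgggccgatctg
Atp5b, chr10:128083313-128083342, minus strand: ccacaagactcAACATGGCggaatccgggt
Cox8a, chr19:7217551-7217580, plus strand: gtcagggagtcAAGATGGCcgaaccagccg
Cox7b, chrX:106015724-106015753, minus strand: tcctgaaaaacAAAATGGCtttcagcaggg

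In 20 of the 27 members with the motif near a start it lay in the direction of transcription (74.1%, against 63.6% of all protein-coding genes with the motif), and in 15 of the 109 members (13.8%) the first base of such a site lay from 0 to 40 bp downstream of the start, against 2.42% of all protein-coding genes. In 16 of the 27 members (59.3%) the ATG of the motif is the annotated start codon, so that the same bases begin the protein with methionine and alanine. Over all protein-coding genes with the motif near a start this was so in 33.8%. Among the unbound members it held for 11 of 16 genes and among the bound members for 5 of 11. A match of letters describes the reference sequence and does not show that YY1 binds there, and a missing peak does not show that it does not.

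**Figure D5:**
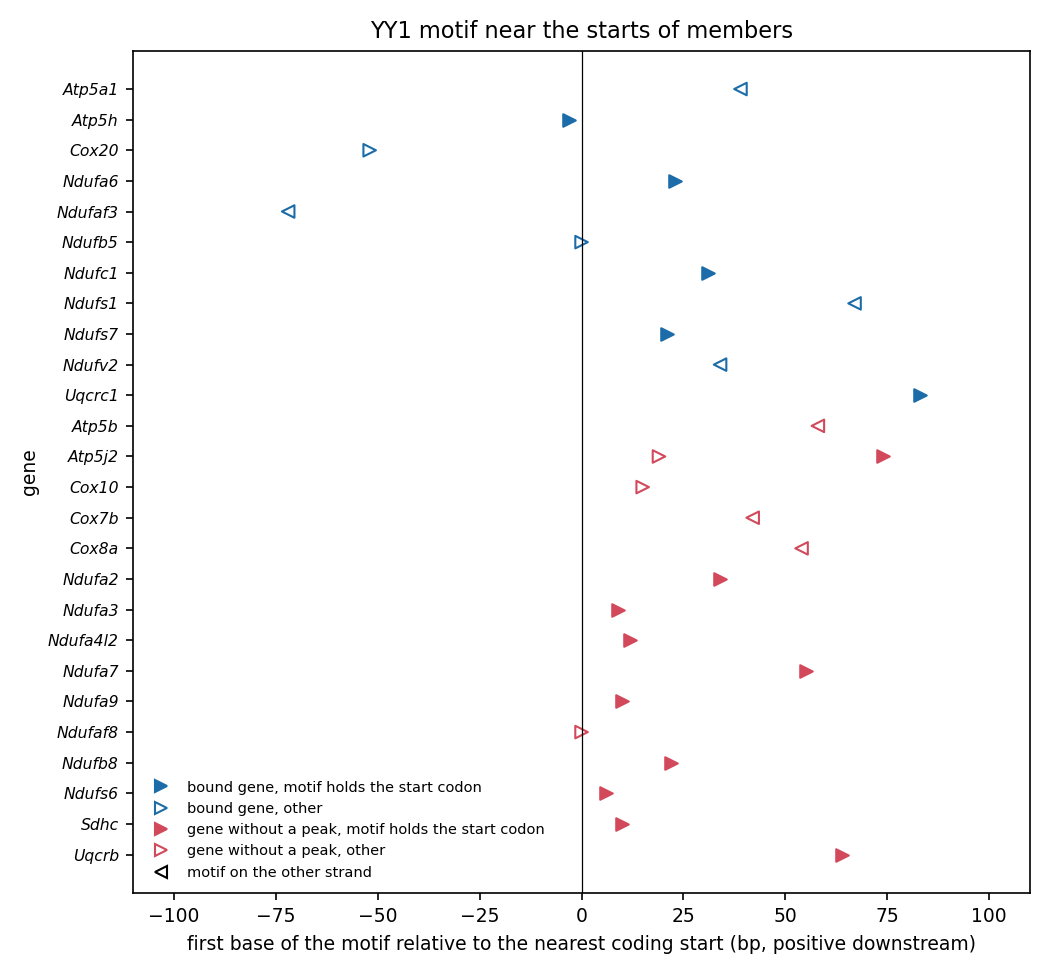
Position in bp of the first base of each YY1 motif from the nearest coding start, for 26 of the 27 members with a motif within 100 bp of a start, in blue for bound genes and in red for genes without a peak. Right-pointing marks lie in the direction of the gene and filled marks hold its start codon, which are 5 of the 11 bound genes and 10 of the 15 genes without a peak that are plotted.

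Other promoter words were counted where they lay wholly within 100 bp of the summits. The NRF1 word, GCGCA and GCGC with any base between them, was present at 11 of the 42 bound members (26.2%), against 12.6% of all bound protein-coding genes. The 11 genes are Ndufaf5, Ndufa6, Ndufa13, Atp5g3, Ndufa11, Cox18, Ndufb4, Sdha, Atp5o, Ndufa5 and Sdhaf3, and Ndufa6 is the only gene of both lists. The ETS word CCGGAAG was found at 3 members (7.14%) against 14.7%, and the SP word GGGCGG at 20 (47.6%) against 64.7%. Around the starts of all 109 members the ETS word was present in 26.6% and the NRF1 word in 21.1%, against 11.6% and 6.14% of all protein-coding genes and 18.6% and 11% of those with a CpG-rich start. The NRF1 word near a start was found in 31.0% of the bound and 14.9% of the unbound members, and in 15.7% of the bound and 3.93% of the unbound genes among all protein-coding genes. For the ETS word these shares were 21.4% and 29.9% of the members and 20.7% and 9.48% of all protein-coding genes. The site nearest to the summit is printed for the bound gene of complex II and for an example each of the assembly factors and of complexes I and V, to show how close to the summit the word lay. The 30 bases are on the strand of the gene, with the word or its reverse complement in capitals, and the word begins or ends 27, 6, 4 and 9 bp from the summit, in the order of the lines.
Ndufaf5, chr2:140170652-140170681, plus strand: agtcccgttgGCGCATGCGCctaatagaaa
Sdha, chr13:74350276-74350305, minus strand: ggggcgtgttGCGCAGGCGCagaatcttcc
Ndufb4, chr16:37654428-37654457, minus strand: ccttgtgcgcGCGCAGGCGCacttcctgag
Atp5g3, chr2:73911295-73911324, minus strand: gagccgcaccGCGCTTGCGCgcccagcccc

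At 10 of the 42 bound members (23.8%) none of the YY1, NRF1, ETS and SP words lay wholly within 100 bp of the summit, against 23.2% of all bound protein-coding genes. These are Ndufab1, Ndufa4, Sdhaf2, Cox15, Ndufs7, Cox7a2l, Ndufb10, Atp5j, Cox11 and Ndufa10, of which Ndufab1, Sdhaf2 and Ndufa10 hold the core ATGGC there. Ndufs7 holds AANATGGC with its start codon at chr10:80249473-80249480, inside its peak. That site crosses the edge of the 100 bp window and so was not counted. For the 3 members with the highest fold enrichment among those whose summit lay within 120 bp upstream of the outermost start and had no other gene's start within 1000 bp, Ndufv2, Ndufa4 and Ndufs8, the 120 bases upstream of that start are printed in the direction of the gene. Capitals would mark the YY1, ETS, NRF1 or SP word on either strand, and the only match in the 3 stretches is a GGGCGG on the reverse strand of Ndufv2. The core ATGGC alone is not marked, and bases downstream of the start are left out. Inside its peak Ndufv2 holds AANATGGC on the other strand, 34 bp downstream of a coding start. Ndufs8 holds CCGGAAG and the core ATGGC within 100 bp of its summit. The summits lie 44 bp upstream of the start for Ndufa4, 34 bp for Ndufv2 and 57 bp for Ndufs8.
Ndufa4, chr6:11907498-11907617, minus strand: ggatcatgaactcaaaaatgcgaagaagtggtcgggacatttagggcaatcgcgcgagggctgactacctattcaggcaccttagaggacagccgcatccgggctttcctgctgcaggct
Ndufv2, chr17:66101560-66101679, minus strand: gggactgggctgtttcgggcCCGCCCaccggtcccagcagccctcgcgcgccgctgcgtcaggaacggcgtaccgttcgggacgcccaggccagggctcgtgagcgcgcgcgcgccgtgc
Ndufs8, chr19:3912775-3912894, minus strand: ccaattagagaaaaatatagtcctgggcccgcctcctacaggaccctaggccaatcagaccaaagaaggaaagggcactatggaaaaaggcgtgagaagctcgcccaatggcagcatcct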

How the data were processed

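Per the labels and the Methods, reads of the YY1 library were mapped by the authors to mm10 with Bowtie2, and peaks were called by MACS2 against the background library. The tool versions are not given in the sources used here. The deposited values used were the fold enrichment, a ratio (fragments plus 1, over local background plus 1), together with the p-value and q-value of each peak as −log10. The largest p-value was 7.59e-05. The deposited integer score was not used. Whole fragments per summit and the local background were solved from fold enrichment and p-value, which all 4681 peaks allowed within 0.001 of the deposited −log10 p. At greater depth weaker sites could pass.

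Transcript starts came from GENCODE M21 basic (GRCm38, the sequence of mm10) and bases from the RefSeq copy of GRCm38. Distances were taken to the nearest start of a gene. Motifs were searched on both strands, and matches of different words may overlap. Members, lists and comparisons were chosen with earlier results of these data known. Values were given in full for the 3 bound members of highest fold enrichment in each group, those at the window limit, those with AANATGGC near the summit and the paralogue pairs. With 1 YY1 library no test was made, and 95% exact Poisson intervals cover counting error only. Not every member counted is reported here by name. The scripts were tested on simulated data. Software comprised samtools 1.23.1, matplotlib 3.10.9 and Python 3.11.15 with pandas 2.3.3, pysam 0.24.0, numpy 2.4.6 and scipy 1.17.1.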

Additional observations from a re-analysis of the deposited data

How the results depend on the processing

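Alternatives changed the promoter window, the start sites, the limit on peaks, the gene set or the motif, and those on CpG-rich starts, shared peaks, the restricted genes and the second record of Atp5o were added after the data were seen. The number of bound members was 36 to 43 under all of them except 2: it was 23 (21.1%, with 11.1% of all protein-coding genes) with a fold enrichment of at least 5, and 19 with peaks in the window of no other gene. With a fold enrichment of at least 5, complexes I, II, IV and V had 9, 0, 3 and 5 bound genes and the assembly factors 4. With a window of 1000 bp upstream to 100 bp downstream, complex III had 1 and complex V 5, where the share of all protein-coding genes was 14.6%. The background was 36.2% among CpG-rich genes. Members with the motif near the summit numbered 3 within 50 bp (7.14%, with 4.25% of all bound genes), 16 within 200 bp (38.1%, with 14.8%) and 16 for the core ATGGC (38.1%, with 31.1%). Within 50 bp and for the core ATGGC, the members and all bound genes lay closer together than in the main count within 100 bp (21.4% and 8.11%). Why the counts changed was not tested. No paired analysis was possible because YY1 and the background were each a single library, and for the same reason no replicate could be left out. With 11 to 24 fragments at the members' summits, depth limits both the order of the genes by fold enrichment and the call of unbound genes.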

Other observations

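The members on chromosome X, looked at because of their values, stood apart by position. None of the 3, Ndufa1, Ndufb11 and Cox7b, was bound, and the nearest summits lay 999, 3045 and 2034 kb away. Among the other unbound members, Cox10 and Cox7b2 alone were as far from a summit as Ndufa1. The whole chromosome carried few peaks. It held 34 of the 4681 peaks, and 22 of its 948 protein-coding genes (2.32%) were bound, against 18.8% over all chromosomes. The cause was not tested.

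Among the paired forms of complex IV subunits, Ndufa4l2 holds AAGATGGC 12 bp downstream of its start, with the ATG as its start codon. It also had the lowest ratio of observed to expected CpG in complex IV, 0.186, and its nearest summit lay 152 kb away.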
